A study of Mus musculus with 12 samples.

Results

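Septin3, Plet1, Serpina3f, Serpina3g and Ccdc102a were selected on their large rise in counts with sPrdm16 in normal mouse bone marrow cells, and they are 5 of the 55487 genes in the deposited tables. The choice rests on the counts of the WT libraries, so the WT values below describe the genes and carry no test. The libraries of MLL::AF9 cells took no part in the choice, and the test of each gene comes from them. RNA-seq libraries came from bone marrow cells in 4 groups of 3 libraries. MA9 sPrdm16 cells had been transduced with a retroviral MLL::AF9 vector and then with a retrovirus expressing sPrdm16, and MA9 mock cells with the same MLL::AF9 vector and a mock retrovirus. WT sPrdm16 cells were normal bone marrow cells given the sPrdm16 retrovirus, and WT mock cells were normal bone marrow cells given the mock retrovirus. MLL::AF9 is a fusion of a chromatin regulator with a transcription elongation factor that drives acute myeloid leukaemia. Per the labels, both MA9 groups grew with 5 ng/ml mouse IL-3, a cytokine for myeloid progenitors, while no medium is stated for the WT groups. The labels do not give the mouse strain, the fraction of transduced cells or whether libraries of a group came from separate cultures, and a p-value here reflects spread among libraries that may be technical replicates.

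The 5 genes belong to unrelated protein families. Septins are GTP-binding proteins that assemble into filaments at the cell cortex and the division furrow, and Septin3 is a member enriched in neurons. Plet1, placenta-expressed transcript 1, is a glycoprotein anchored to the cell surface by glycosylphosphatidylinositol, known in the mouse from trophoblast and epithelial progenitors and from some dendritic cells. Serpins are protease inhibitors that trap their target in an irreversible complex. Mice carry a cluster of Serpina3 genes in place of the single human SERPINA3, which encodes alpha-1-antichymotrypsin. Serpina3f and Serpina3g belong to it, and the mouse Serpina3g protein, also called Spi2A, blocks lysosomal cysteine cathepsins. Ccdc102a encodes a coiled-coil protein, and the human paralogue CCDC102B is a component of the linker between centrosomes.

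The RefSeq promoter windows of 4 of the 5 genes (build GRCm38.p6, 250 bases before to 50 after the start site) are shown because the genes differ in the kind of start site they carry. Capitals mark matches to TTCNNNGAA, the gamma-activated site bound by STAT factors, and to TATAAA or its reverse complement.
Plet1 (chr9:50494275-50494574, plus strand): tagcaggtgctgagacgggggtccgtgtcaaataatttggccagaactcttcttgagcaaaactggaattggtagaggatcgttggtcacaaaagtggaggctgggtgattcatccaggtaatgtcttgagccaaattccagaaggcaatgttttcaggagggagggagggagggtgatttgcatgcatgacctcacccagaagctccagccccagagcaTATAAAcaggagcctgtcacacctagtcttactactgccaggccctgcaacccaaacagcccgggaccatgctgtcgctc
Serpina3f (chr12:104214294-104214593, plus strand): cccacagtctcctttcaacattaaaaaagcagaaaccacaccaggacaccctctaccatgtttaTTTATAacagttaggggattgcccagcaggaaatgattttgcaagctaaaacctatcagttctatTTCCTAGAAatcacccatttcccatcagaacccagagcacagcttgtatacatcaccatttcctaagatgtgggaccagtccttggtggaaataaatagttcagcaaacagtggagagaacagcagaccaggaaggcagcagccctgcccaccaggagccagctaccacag
Serpina3g (chr12:104235897-104236196, plus strand): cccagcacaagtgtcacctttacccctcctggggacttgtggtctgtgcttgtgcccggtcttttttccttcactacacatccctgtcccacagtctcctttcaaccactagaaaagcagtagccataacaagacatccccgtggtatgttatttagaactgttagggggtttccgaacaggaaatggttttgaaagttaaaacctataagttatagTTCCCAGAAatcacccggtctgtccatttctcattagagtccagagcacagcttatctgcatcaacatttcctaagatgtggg
Ccdc102a (chr8:94918049-94918348, minus strand): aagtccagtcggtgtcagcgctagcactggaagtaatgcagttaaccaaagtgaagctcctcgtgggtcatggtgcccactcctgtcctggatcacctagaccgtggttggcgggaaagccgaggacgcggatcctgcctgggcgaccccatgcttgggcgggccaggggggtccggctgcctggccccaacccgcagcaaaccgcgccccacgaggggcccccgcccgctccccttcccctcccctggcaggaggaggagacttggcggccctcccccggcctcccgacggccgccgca

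Each window was searched on both strands for TTCNNNGAA, TGANTCA (bound by AP-1), AGATAA (bound by GATA factors) and TATAAA, and for the interferon-stimulated response element (IRF factors), the composite PU.1 and IRF element and the kappaB site. These motifs were chosen with the sequences and results in view, and a match is a description of letters. Of 32851 RefSeq promoter windows of the same length, 8.30% held the gamma-activated site, 3.44% the IRF motif, 2.72% the PU.1 and IRF motif, 1.47% the NF-kappaB motif, 7.81% the AP-1 motif, 11.2% the GATA motif and 13.6% TATAAA. The Plet1 window held TATAAA 30 bases before its start, and an AP-1 motif 144 bases before it that is not in capitals. The gamma-activated site lay 121 bases before the start of Serpina3f and 33 bases before the RefSeq start of Serpina3g, which is 98 bases upstream of the gene start in the deposited tables. Serpina3f also matched TATAAA on the minus strand, and Serpina3g matched the GATA motif on the minus strand, which is not in capitals. The Ccdc102a window matched none of the 7 motifs. It was 69.3% G and C with 23 CpG, against medians of 52.7% and 7 over all windows, while the Serpina3f window shown held 46.0% and 0 CpG.

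The 2 serpin windows are related in sequence, with 169 identical bases in 214 aligned columns (79.0%). Of the other members of the cluster Serpina3n alone was compared, and it is not among the nearest genes of the pair. The stretch around the gamma-activated site is shown for Serpina3f, Serpina3g and Serpina3n, with the 9 bases of the site in capitals.
Serpina3f (chr12:104214414-104214435, plus strand): cagttctatTTCCTAGAAatca
Serpina3g (chr12:104236105-104236126, plus strand): aagttatagTTCCCAGAAatca
Serpina3n (chr12:104406576-104406597, plus strand): aaatccatgTTACCAGAAatca
With positions counted from 1 at the 5′ end and the base of Serpina3f given first, Serpina3g differed by C1A, C6A and T9G outside the site and by T14C within it. Serpina3n differed within the site by C12A and T14C and did not match the motif.

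Counts per library ranged from 17217159 to 37390945, but the part from nuclear protein-coding genes varied more. Those genes held 16905133 to 28169209 counts in MA9 sPrdm16, 3844558 to 7406093 in MA9 mock, 16046071 to 17789842 in WT sPrdm16 and 16935736 to 17390423 in WT mock. Small and structural RNAs made up 18.56% to 18.79% of counts in MA9 sPrdm16 and 59.07% to 74.18% in MA9 mock, with MA9 mock replicate 3 the shallowest library, so low genes are least well measured in MA9 mock. Prdm16 itself followed the labels, with 5733, 8889 and 5353 counts in MA9 sPrdm16, 0 in each MA9 mock library, 950, 708 and 793 in WT sPrdm16 and 22, 18 and 0 in WT mock. Levels are given as CPM, the count of a gene over its library total in a fixed unit, after TMM scaling within a genotype, with SDs over 3 libraries.

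In WT mock Septin3 and Ccdc102a were at or near the limit of detection, Plet1 and Serpina3f were low but counted in every library, and Serpina3g was abundant. In MA9 cells all 5 genes stood below 5 CPM in every library on the TMM scale, and Serpina3g alone passed the test. In bulk RNA, more cells that express a gene and more RNA per cell cannot be told apart.

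Septin3 (ENSMUSG00000022456.18, mm10 chromosome 15, 82268802 to 82294574, plus strand) had 317, 342 and 281 counts in WT sPrdm16, against 4, 7 and 24 counts in WT mock. This was 15.7, 18.6 and 15.6 CPM in WT sPrdm16 and 0.228, 0.409 and 1.37 CPM in WT mock, so the groups did not overlap and the third mock library was the highest of its group. The log2 fold change in WT was 4.62 (SE 0.44), and without that library, WT mock replicate 3, it was 5.68. In MA9 cells Septin3 had 0 counts in all 6 libraries. A floor of 3 counts allows levels of up to 0.0481 to 0.0802 CPM in the MA9 sPrdm16 libraries and 0.179 to 0.365 CPM in the MA9 mock libraries, and such floors cover counting error alone.

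Plet1 (ENSMUSG00000032068.14, chromosome 9, 50494525 to 50505482, plus strand) had 563, 527 and 569 counts in WT sPrdm16, against 25, 37 and 30 in WT mock. On the CPM scale the WT sPrdm16 libraries stood at 28.0, 28.7 and 31.5 and the WT mock libraries at 1.43, 2.16 and 1.71, the tightest pair of groups among the 4 low genes. The log2 fold change in WT was 4.05 (SE 0.23). MA9 sPrdm16 libraries had 0.468, 0.337 and 0.855 CPM and MA9 mock libraries 0.655, 0.183 and 0.851 CPM. These groups overlapped, and the test gave a log2 fold change of 0.04 (SE 0.66, edgeR quasi-likelihood adjusted p = 0.973), which does not show that the levels were equal. Its sign turned without MA9 sPrdm16 replicate 3 (-0.42) or MA9 mock replicate 2 (-0.44). Plet1os, a gene on the other strand, spans the whole of Plet1, and since strand is not stated reads of the pair cannot be told apart. Plet1os averaged 0.393 ± 0.183 CPM in WT sPrdm16 and 0.0951 ± 0.165 CPM in WT mock (SD, n = 3 each), below Plet1 in both. In MA9 it averaged 0.761 ± 0.240 CPM with sPrdm16 and 1.35 ± 0.388 CPM with mock (SD, n = 3 each), above Plet1 in both.

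Serpina3f (ENSMUSG00000066363.12, chromosome 12, 104214544 to 104221129, plus strand) had 319, 279 and 355 counts in WT sPrdm16, against 14, 23 and 15 in WT mock. In CPM these were 15.8, 15.2 and 19.7 in WT sPrdm16 and 0.799, 1.34 and 0.857 in WT mock, with a log2 fold change of 4.07 (SE 0.31). In MA9 cells the libraries stood at 1.47, 1.28 and 1.50 CPM with sPrdm16 and 0.536, 1.16 and 2.55 CPM with mock. The mock libraries spread on both sides of the sPrdm16 libraries, and the log2 fold change was 0.10 (SE 0.51, edgeR adjusted p = 0.900). It was -0.33 without MA9 mock replicate 1, and with counts scaled to library totals alone it was 1.66 (edgeR adjusted p = 0.00639), where the median of all genes moved to 1.43.

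Serpina3g (ENSMUSG00000041481.17, chromosome 12, 104236245 to 104241939, plus strand) differed from the other 4 in its level. It had 7335, 6635 and 6467 counts in WT sPrdm16, against 3127, 2559 and 2841 in WT mock. WT sPrdm16 libraries stood at 364, 361 and 358 CPM and WT mock libraries at 179, 149.6 and 162 CPM, so the gene was already abundant with mock and its log2 fold change of 1.14 (SE 0.09) was a 2.21-fold difference. By size of rise among the 14063 genes tested in WT it ranked 859, while Ccdc102a, Septin3, Serpina3f and Plet1 ranked 2, 37, 50 and 51. These ranks use the WT values that chose the genes and are a description alone. Given its level in WT mock, the name "newly induced" does not describe Serpina3g.

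In MA9 cells Serpina3g had 174, 300 and 185 counts with sPrdm16 and 46, 28 and 20 with mock. This was 4.07, 4.81 and 4.94 CPM in MA9 sPrdm16 and 2.74, 1.71 and 2.43 CPM in MA9 mock, and the groups did not overlap, with every sPrdm16 library above every mock library as for 26.7% of all genes tested in MA9. The log2 fold change was 1.01 (SE 0.25, edgeR adjusted p = 0.0125). The call ended without MA9 sPrdm16 replicate 2 (0.98, edgeR adjusted p = 0.0673) or replicate 3 (0.97, edgeR adjusted p = 0.0663). Of the 5 genes, 3 passed the low-count filter in MA9 and 1 of these rose, where 17.1% of all 14394 genes tested in MA9 rose. A single gene of 3 gives no share to set against that background.

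The deposited tables also count AC142112.1 (ENSMUSG00000118588.1), an unprocessed pseudogene on the same strand that overlaps Serpina3g over 3436 bases (chromosome 12, 104237888 to 104241323). It had 132, 158 and 85 counts in MA9 sPrdm16, against 0, 8 and 9 in MA9 mock, and 0 in each of the 6 WT libraries, although Serpina3g itself was far higher in WT. The pseudogene entry took 43.1%, 34.5% and 31.5% of the summed counts in MA9 sPrdm16 and 0%, 22.2% and 31.0% in MA9 mock. Summed over both entries, MA9 sPrdm16 libraries stood at 7.16, 7.34 and 7.22 CPM and MA9 mock libraries at 2.74, 2.20 and 3.53 CPM, with a log2 fold change of 1.40 (edgeR adjusted p = 0.000935). This sum was added after the data were seen, and its call held without any 1 of the 6 libraries (1.24 to 1.55, edgeR adjusted p = 0.000195 to 0.00915). How reads were shared between the 2 entries was not tested.

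**Figure D1:**
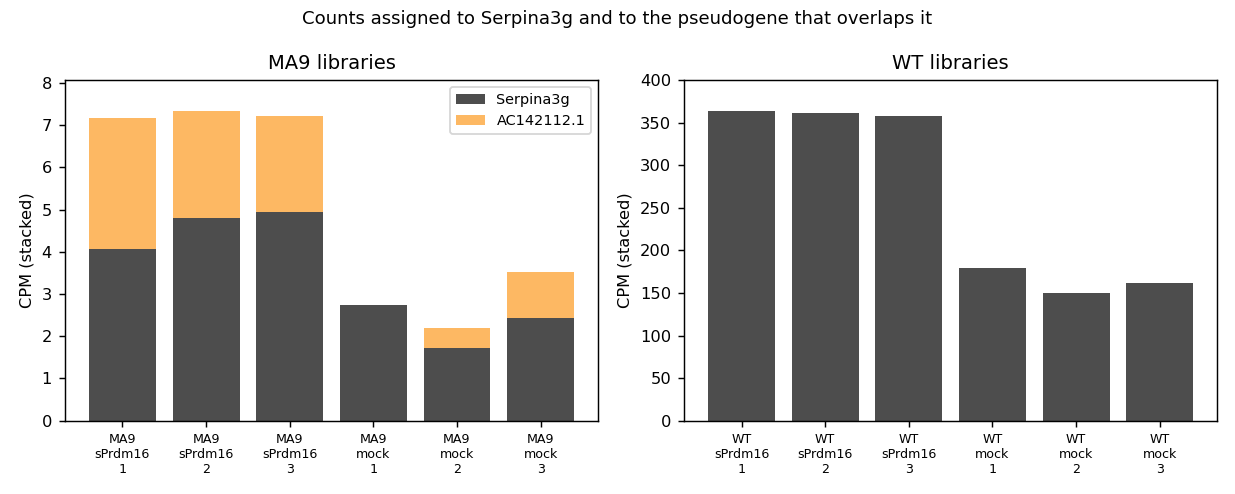
Stacked bars show the CPM assigned to Serpina3g (dark) and to the overlapping pseudogene AC142112.1 (orange) in each library, with MA9 libraries on the left and WT libraries on the right, each panel on its own scale. The MA9 sPrdm16 sums lie between 7.16 and 7.34 CPM, above all MA9 mock sums, and the pseudogene has no counts in WT.

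Ccdc102a (ENSMUSG00000063605.5, chromosome 8, 94902869 to 94918098, minus strand) had 73, 172 and 122 counts in WT sPrdm16 and 0 in each WT mock library. Its levels of 3.62, 9.36 and 6.76 CPM in WT sPrdm16 were the most variable of the 5 genes, with a mean of 6.58 ± 2.87 CPM (SD, n = 3). Against a floor of 3 counts in each mock library it was at least 38.1-fold higher in WT sPrdm16. In MA9 cells it had 4, 8 and 3 counts with sPrdm16 and 4, 1 and 0 with mock, too few to pass the filter, and no fold change is given. All 5 genes were higher in every WT sPrdm16 library than in any WT mock library, as were 23.8% of the 14063 genes tested in WT, and nothing is read from this because the rule chose them so.

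**Figure D2:**
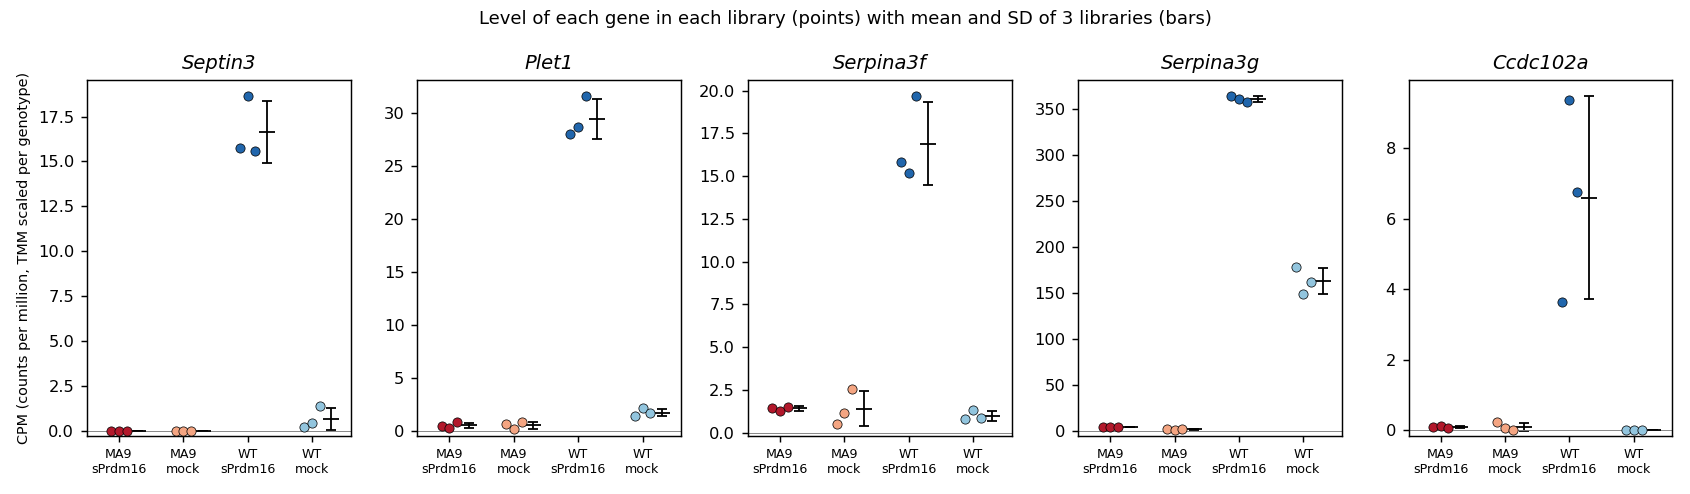
Points show the CPM of each gene in each library and bars the mean with SD of 3 libraries, with groups in the order MA9 sPrdm16, MA9 mock, WT sPrdm16 and WT mock and a separate scale for each gene. WT sPrdm16 libraries stand apart in every panel, and Serpina3g alone is also high in WT mock.

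Per kilobase of the gene's length, on a scale set over all 12 libraries, Serpina3g led in WT sPrdm16 with 150.4 ± 1.11 CPM per kb, ahead of Plet1 (14.1 ± 0.912), Serpina3f (6.09 ± 0.874), Ccdc102a (2.31 ± 1.01) and Septin3 (2.09 ± 0.217; SD, n = 3 each). Ccdc102a and Septin3 did not differ beyond their spread, since the Ccdc102a libraries ran from 1.27 to 3.29 and those of Septin3 from 1.96 to 2.34 CPM per kb. In WT mock the order was Serpina3g (67.6 ± 5.74 CPM per kb), Plet1 (0.842 ± 0.179), Serpina3f (0.358 ± 0.108), Septin3 (0.0837 ± 0.0768) and Ccdc102a, listed at 0. In MA9 sPrdm16 Serpina3g stood at 3.03 ± 0.310 CPM per kb, Serpina3f at 0.806 ± 0.0574 and Plet1 at 0.418 ± 0.198. The same genes stood at 1.41 ± 0.323, 0.751 ± 0.537 and 0.398 ± 0.239 CPM per kb in MA9 mock. MA9 and WT counts came in separate tables, so genotype and table cannot be told apart, and the difference of the sPrdm16 effect between genotypes was not tested because the WT values chose the genes.

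The septin family did not follow Septin3. Leaving Septin3 out, 10 septin entries were tested in WT, of which 0 rose and 3 fell, with a median log2 fold change of -0.19 against 0.01 for all genes, where 17.5% of genes tested in WT rose and 16.6% fell. Septin5, a septin of platelets and neurons, fell to 0.678 CPM in WT sPrdm16, against 14.2 CPM in WT mock (log2 -4.38, SE 0.33, edgeR adjusted p = 1.5e-07). Septin7, a core filament subunit, fell by 0.57 and Septin9 by 0.35, and the call of Septin9 ended with total counts (edgeR adjusted p = 0.137). In MA9 cells 4 of 10 entries rose and 3 fell, with a median of 0.06 against 0.03, where 17.1% and 17.5% of all genes tested in MA9 did so. Septin10 rose by 1.86 (edgeR adjusted p = 4.1e-05), Septin8 by 0.98, and Septin5 fell to between 1.19 and 1.59 CPM in MA9 sPrdm16, against 9.85 to 13.1 CPM in MA9 mock (edgeR adjusted p = 1.9e-05). The rise of Septin6 (0.37) and the fall of Septin11 (-0.25) each ended when any 1 of the MA9 sPrdm16 libraries was left out. With total counts Septin11 stood at 1.18. Septin2 has 2 overlapping entries in the tables that went opposite ways in MA9, at -0.53 and 1.40, so no direction is given for that gene.

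The rest of the Serpina3 cluster was silent. Of its 9 other genes none passed the filter in either genotype, and Serpina3k had the most counts, 9 summed over WT sPrdm16 and 13 over WT mock. Serpina3f and Serpina3g lie 15116 bases apart, and Serpina3c on one side and Serpina3j on the other had 0 counts in all libraries. Serpina3i, nearest to Serpina3g, had 2 counts summed over WT sPrdm16 and 1 over WT mock. Transcripts of the pair are similar (88.9% identity over 1756 aligned columns), and 10.6% of the 50-base words of Serpina3f and 15.5% of those of Serpina3g also occur in another gene, so some of their reads could be counted to a relative.

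Clade B serpins act inside cells. In WT 2 of 10 tested rose and 3 fell (median -0.11 against 0.01 for all genes), numbers too small to set apart from the 17.5% and 16.6% of all genes tested in WT. Serpinb1a, an inhibitor of neutrophil proteases, fell by 1.56 (edgeR adjusted p = 2.6e-09) and Serpinb2, known as plasminogen activator inhibitor 2, by 1.86. The rises of Serpinb6b (1.09) and Serpinb9b (1.80) in WT ended when certain single libraries were left out: each without WT sPrdm16 replicate 2, and also without WT sPrdm16 replicate 1 for Serpinb9b and without WT sPrdm16 replicate 3 or WT mock replicate 1 or 2 for Serpinb6b. In MA9 cells 4 of 7 rose and 1 fell (median 0.69 against 0.03, where 17.1% and 17.5% of all genes did so), among them Serpinb8 (1.76), Serpinb6a (0.74) and Serpinb1a (0.69) upward, Serpinb6b at 1.32 CPM in MA9 sPrdm16 and 0 in MA9 mock, and Serpinb2 (-3.24) downward.

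**Figure D3:**
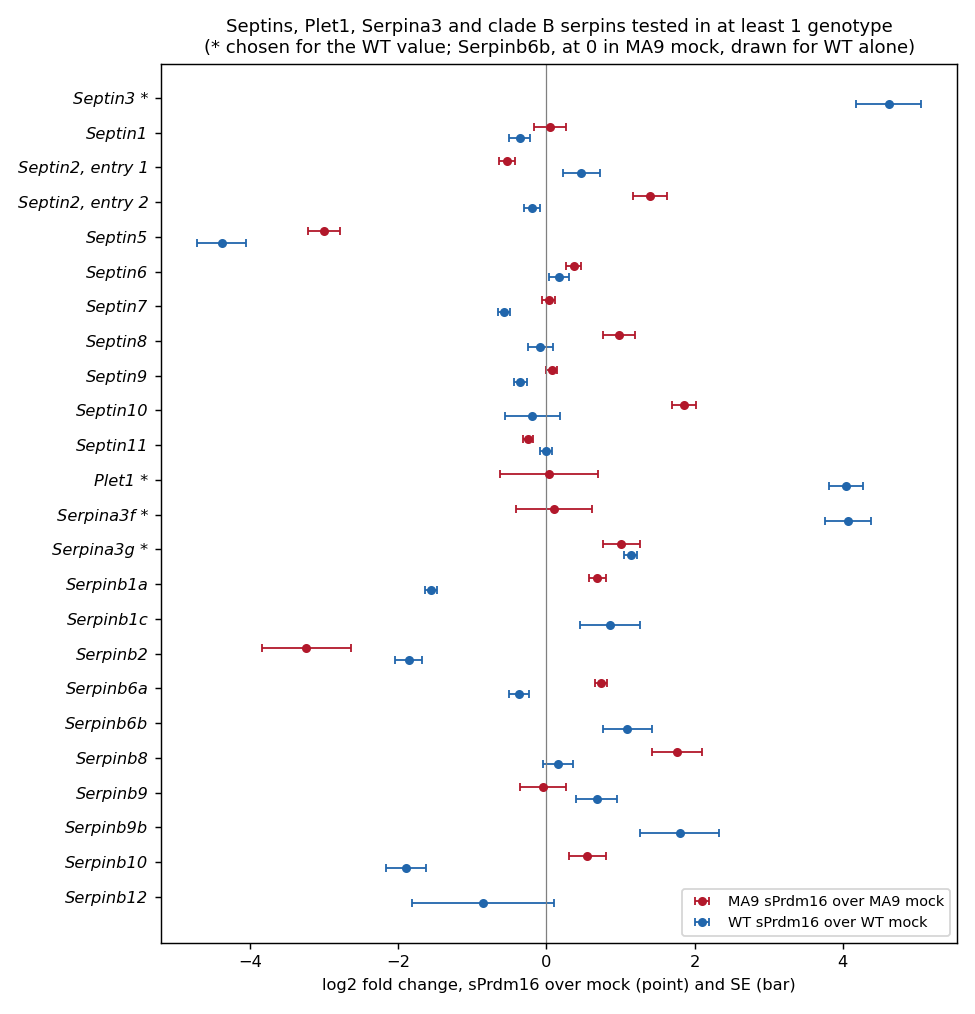
Points show the log2 fold change of sPrdm16 over mock and bars its SE, in MA9 (red) and WT (blue), for septins, Plet1, Serpina3 genes and clade B serpins, with asterisks on the genes chosen for their WT value. Septin3 was chosen for its rise in WT, where it stands at 4.62, and no other septin tested in WT rose.

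Of proteases that serpins can block 3 of 12 tested in WT rose and 8 fell (median -0.28 against 0.01), where 17.5% and 16.6% of all genes did so. The mast cell protease Cma1 fell by 5.69 and the basophil protease Mcpt8 by 3.94. Cathepsin L (Ctsl) fell by 1.07, and granzyme B (Gzmb) rose by 1.99 (edgeR adjusted p = 1.4e-08). With total counts 5 of the 12 fell. In MA9 cells 4 of 9 rose, among them Elane (0.70) and Prtn3 (0.65), and 3 fell, among them cathepsin S (Ctss, -3.65). Of all genes tested in MA9, 17.1% rose and 17.5% fell.

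Genes of the interferon gamma response, a pathway known to raise Serpina3g in mouse macrophages, rose in 11 of 22 tested in WT and fell in 2 (median 0.61 against 0.01), where 17.5% and 16.6% of all genes did so. Ciita, the master activator of MHC class II genes, rose by 2.93 (SE 0.20, edgeR adjusted p = 6.3e-08), the immunoproteasome gene Psmb8 by 0.94 and the GTPase gene Ifi47 by 1.13. The chemokine gene Cxcl10 fell by 2.32. In MA9 cells 5 of 19 rose and 1 fell (median 0.21 against 0.03, beside 17.1% and 17.5% of all genes), with Nlrc5, an activator of MHC class I genes, at 1.89 and Irgm2 at 1.36.

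Genes linked to the other 3 members by class or tissue are given beside the same shares of all genes, 17.5% higher and 16.6% lower in WT and 17.1% and 17.5% in MA9. Among GPI-anchored surface genes of myeloid cells, the class of Plet1, 3 of 16 rose and 9 fell in WT (median -0.72 against 0.01), and 2 of 14 rose and 6 fell in MA9 (median -0.67 against 0.03, but 0.73 with total counts). Ly6a, the stem cell antigen Sca-1, rose by 2.24 and Cd24a fell by 1.85. Of trophoblast and epithelial genes 4 were tested in WT and 1 rose, Epcam, at 7.36 CPM in WT sPrdm16 against 1.41 CPM in WT mock, while Elf5, Esrrb, Krt5 and Tfap2c had 0 counts. In MA9 3 were tested and all 3 rose, the keratin gene Krt7 by 5.71, the cadherin gene Cdh1 by 3.08 and Lrig1 by 2.04, while Plet1 in MA9 stood at 0.04. Krt7, Cdh1 and Lrig1 had 779, 1282 and 487 counts summed over MA9 sPrdm16, against 4, 45 and 37 over MA9 mock. They passed the low-count filter through the MA9 sPrdm16 libraries, so nothing is read from all 3 having risen. The call of Lrig1 ended when any 1 of the MA9 sPrdm16 libraries was left out. Of neuronal genes 3 were tested in WT and 1 fell, with Dcx, Gap43, Nefl and Snap25 at 0. Septin partners, which bind or regulate septin filaments, rose in 1 of 7 and fell in 3 in WT (median -0.11), and rose in 1 of 7 in MA9, Cdc42ep4 (1.13). Of genes of the centrosome linker 4 of 8 rose and 1 fell in WT (median 0.84), led by rootletin, Crocc (1.96). In MA9 none of the 8 rose and 5 fell (median -0.35). With total counts 7 rose and none fell (median 1.05). The calls of all 5 falls ended in a joint fit of all 12 libraries (edgeR adjusted p = 0.0646 to 0.321), so the number of falls is not stable.

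Of 24 protein-coding genes beside the 5 loci 14 were tested in WT, of which 4 rose and 2 fell (median log2 0.18 against 0.01), where 17.5% and 16.6% of all genes did so. Of the 4 that rose, 3 lie beside Ccdc102a. Beside Septin3, Wbp2nl had 0 counts in all libraries and the centromere gene Cenpm rose by 1.03 (edgeR adjusted p = 0.00156). Beside Plet1, Pts stood at -0.30 and Bco2 at 1.51, neither past the threshold (edgeR adjusted p = 0.0730 for each). The adhesion gene Ncam1, which fell by 3.22, lies 695600 bases from Plet1. Beside Ccdc102a, the adhesion receptor gene Adgrg1 rose by 0.89, the coenzyme Q gene Coq9 by 0.77 and the RNA polymerase II subunit gene Polr2c by 0.52 (edgeR adjusted p = 7.4e-06, 0.00026 and 0.00098), and Adgrg3 fell by 0.99, while the nearest, Adgrg5, averaged 0.165 CPM in WT sPrdm16 and 0 in WT mock. In MA9 12 neighbours were tested, of which 2 rose, Adgrg1 (2.08) and Rpl10-ps3 (0.97), and 1 fell, Ncam1 (-0.57, but 0.86 with total counts). Of all genes tested in MA9, 17.1% rose and 17.5% fell. Rpl10-ps3, listed as protein-coding under the name of a pseudogene, lies 149557 bases from Plet1.

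**Figure D4:**
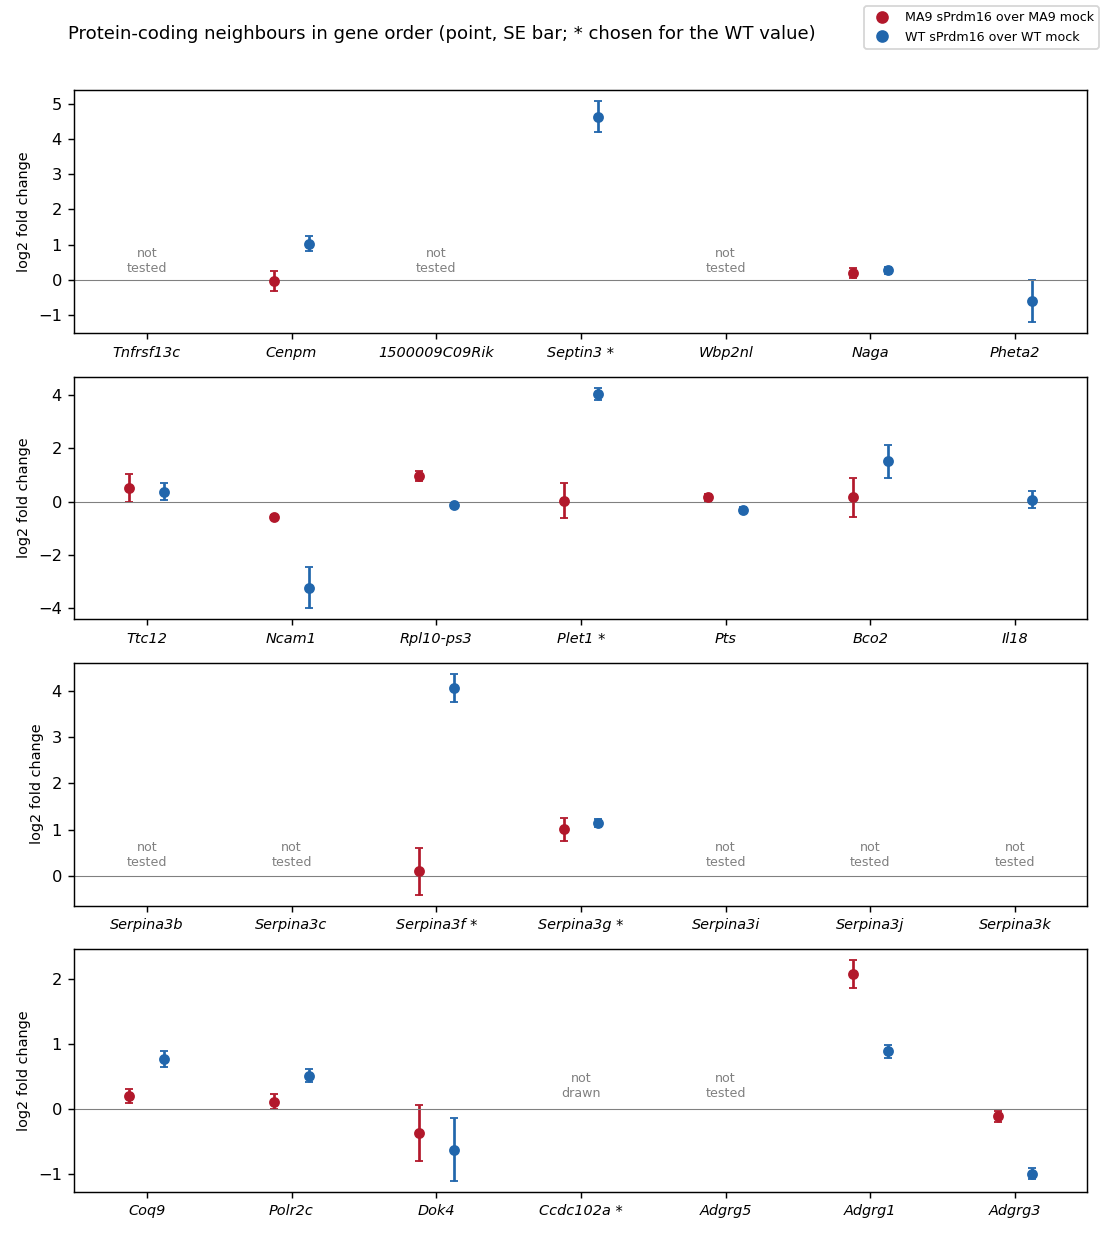
Points show the log2 fold change of sPrdm16 over mock with SE bars in MA9 (red) and WT (blue) for each gene (asterisk) and its 3 nearest protein-coding genes on either side, in chromosome order, and the panel of Serpina3g also holds Serpina3f. The largest WT value in the Septin3, Plet1 and Serpina3f neighbourhoods is that of the chosen gene, and nothing is read from this because that value chose it. Ccdc102a is not drawn because it had no counts in WT mock.

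Cell type markers also differed between the groups, and their part in the values above was not tested. The counts of markers called stand beside 17.5% of all genes higher and 16.6% lower in WT, and 17.1% and 17.5% in MA9. Dendritic cell markers summed to 2865 to 3205 CPM in WT sPrdm16 and 808 to 934 CPM in WT mock, with 7 of 10 tested higher. Most of this sum came from the MHC class II genes Cd74, H2-Ab1, H2-Aa and H2-Eb1, at 1709, 621, 328 and 247 CPM in WT sPrdm16, against 524, 120.4, 84.0 and 50.9 CPM in WT mock. Itgax (-0.11), Irf8 (0.18) and Batf3 (0.34) of the same list did not pass the test. Stem and progenitor markers summed to 525 to 538 CPM in WT sPrdm16 and 435 to 475 CPM in WT mock, with 7 of 11 higher and 1 lower. Neutrophil markers summed to 5075 to 5566 CPM in WT sPrdm16 and 26296 to 32339.6 CPM in WT mock, with 11 of 12 lower. Mast cell and basophil markers summed to 581 to 633 CPM in WT sPrdm16 and 5690.3 to 6318 CPM in WT mock, with 11 of 11 lower, and eosinophil markers to 16.4 to 22.9 CPM and 287 to 330.3 CPM in the same groups. Monocyte and macrophage markers ran from 2035 to 2137 CPM in WT sPrdm16 and from 2048 to 2439 CPM in WT mock. T and NK cell markers summed to 139.8 to 166 CPM in WT sPrdm16 and 45.1 to 56.4 CPM in WT mock. Of 4 tested, 2 were higher, Gzmb (log2 1.99) and Nkg7 (0.94), and these made up most of the sum in both groups. Lck (1.19) and Cd3g (1.25) of the same list did not pass the test, and Cd8a, Ncr1 and Prf1 were at 0. In MA9 cells monocyte and macrophage markers summed to 23.8 to 26.6 CPM with sPrdm16 and 90.6 to 191 CPM with mock, with 7 of 8 tested lower, and dendritic cell markers to 12.2 to 13.9 CPM with sPrdm16 and 34.7 to 66.2 CPM with mock, beside the rise of Serpina3g there. Eosinophil markers summed to 10.0 to 11.7 CPM in MA9 sPrdm16 and 85.0 to 129.5 CPM in MA9 mock, with 6 of 7 tested lower. Stromal and endothelial markers summed to 64.1 to 65.7 CPM in MA9 sPrdm16 and 18.4 to 19.3 CPM in MA9 mock, with 2 of 4 tested higher and 1 lower. Most of this sum came from Pecam1, at 59.6 CPM in MA9 sPrdm16 and 15.3 CPM in MA9 mock, while Pdgfrb fell by 3.98.

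Over the 12 libraries, the genes whose log2 CPM followed each gene most closely were Rogdi for Septin3 (Pearson r = 0.988), Jmjd8 for Plet1 (0.968), Prmt1 for Serpina3f (0.986), Slco3a1 for Serpina3g (0.997) and Clpb for Ccdc102a (0.977), out of 10226 genes compared. These libraries fall into MA9 and WT sets that come from separate tables, and all points share that split, so r is given as a description. Among the 5 genes themselves r ran from 0.454 for Serpina3f with Serpina3g to 0.954 for Septin3 with Plet1. The neighbouring serpins were the least alike pair. All 5 genes were chosen for a rise in the same WT libraries, so nothing is read from r among them.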

How the data were processed

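Total RNA was sequenced from 12 libraries in 4 groups. The authors deposited a table of expected counts per genotype (estimated counts per gene that need not be whole), made with DRAGEN on mm10 per the submitters' processing notes. Whether strand was used is not given in the sources used here. Non-whole values made up 5.187% to 10.21% of each library and were rounded. Each genotype was fitted on its own 6 libraries with edgeR 4.0.16 in R 4.3.3 (TMM scaling, minimum count 10 and total 15, robust quasi-likelihood F tests, Benjamini-Hochberg adjustment over all genes tested, threshold 0.05). A gene that "rose" or "fell" passed this threshold, relative to the median gene. SEs of log2 fold changes come from the F statistic. Alternatives were other scalings, filters and tools (DESeq2 1.42.0, limma-voom 3.58.1), a replicate block, a joint fit, protein-coding genes alone and each library left out. The code was tested on simulated data. Promoter windows are RefSeq's (GRCm38.p6), and shared 50-base words and transcript alignments use GENCODE M21. The genes and lists were chosen with earlier results of these data known. Named genes are mainly the 5, other septins and Serpina3 genes tested, the 3 nearest coding genes on each side, called list genes with the smallest p, and the most correlated genes. Other list genes, such as Ifi47, Elane, Serpinb8, Itgax, Irf8 and Batf3, were named outside this rule.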

Additional observations from a re-analysis of the deposited data

Results flagged for a closer look

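Among the genes of all lists and the neighbouring genes, 12 passed the test in both genotypes with opposite directions, with every MA9 sPrdm16 library on one side of mock and every WT sPrdm16 library on the other. For each the difference between genotypes was not tested. Values are log2 fold changes of sPrdm16 over mock. Serpinb1a stood at 0.69 in MA9 and -1.56 in WT. Ctsb, a cathepsin that Serpina3g can block, stood at 0.61 in MA9 and -0.25 in WT. The centrosome genes Nek2 and Crocc stood at -0.33 and -0.49 in MA9, and at 1.07 and 1.96 in WT. Ifngr1, an interferon gamma receptor chain, stood at 0.25 in MA9 and -0.29 in WT. The GPI-anchored genes Cd48 and Ly6c2 stood at -1.03 and 0.51 in MA9, and at 0.62 and -1.02 in WT. Of the cell type markers, the neutrophil genes Lcn2 and S100a9 stood at 1.12 and 1.89 in MA9, and at -2.14 and -2.67 in WT. Csf1r, Cd74 and Pdgfrb stood at -3.11, -4.58 and -3.98 in MA9, and at 0.28, 1.71 and 2.52 in WT. With total counts the MA9 values of Nek2, Crocc and Cd48 turned to 1.07, 0.91 and 0.42. When single libraries were left out, the MA9 calls of Nek2, Crocc and Ifngr1 and the WT calls of Ctsb, Ifngr1 and Csf1r ended in some of the fits. In a joint fit of all 12 libraries the MA9 calls of Nek2 and Crocc and the WT calls of Ctsb and Csf1r also ended.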

How the results depend on the processing

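In MA9 cells the total-count scaling gave 11489 rises and 607 falls (95.0% rises), against 2456 and 2525 (49.3%) with TMM, and the median of all genes was 1.43, against 0.03 with TMM. In WT it gave 3668 and 1501 (71.0%), against 2463 and 2335 (51.3%), with the median at 0.18. Under it Serpina3f in MA9 stood at 1.66 (edgeR adjusted p = 0.00639), Serpina3g in MA9 at 2.42 and Serpina3g in WT at 1.32. A joint fit of 12 libraries gave 59.5% rises in MA9. Leaving out 1 library at a time gave 1533 to 3268 rises and 1773 to 3217 falls in MA9, and 1827 to 2391 rises and 1779 to 2135 falls in WT. In MA9 the same ranges were -0.44 to 0.37 for Plet1, which turned to -0.42 without sPrdm16 replicate 3 and -0.44 without mock replicate 2, -0.33 to 0.74 for Serpina3f, which turned to -0.33 without mock replicate 1, and 0.81 to 1.19 for Serpina3g. The cause was not tested. With a filter of 5 CPM in 3 libraries Serpina3g alone of the 5 genes was tested in MA9. With the replicate number as a block MA9 had 2103 rises and 2088 falls and WT 2403 and 2228, and Serpina3g in MA9 stood at 1.02 (edgeR adjusted p = 0.0344). Same-numbered libraries did not deviate together (r from -0.054 to 0.049), so no pairing was seen. Counting error in low genes also lowers r, so this cannot show whether same-numbered libraries shared a culture. At the depth of the MA9 libraries Septin3 can be placed only below the floors given with its values, and Ccdc102a had too few counts to test.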
